A study of Mus musculus with 74 samples.

Results

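Mouse embryonic fibroblasts that had received Klf4, c-Myc and the engineered SOX factor eSox17FNV, and had been grown in neural stem cell (NSC) medium, were compared at days 20 and 24 with 2 established neural stem lines. The members are the 8 libraries of this comparison, taken by their labels from the 74 samples of the series: 2 of day 20, 2 of day 24, 2 of primary NSCs and 2 of an induced neural stem line. The fibroblasts carried Nanog-CreER, Rosa26-tdTomato and Sox2-GFP alleles, an M2rtTA lentivirus and doxycycline (Dox)-inducible lentiviral factors. They were kept in N2B27 medium with Dox to day 8 and in NSC medium, which holds bFGF and EGF, from then on, and Dox was withdrawn after day 16. The 4 libraries of days 20 and 24 are called the late cells, and all of them were taken after the withdrawal.

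The primary NSCs carried Sox2-GFP, had received no factors and were at passage 15 in NSC medium. The induced line, also Sox2-GFP, at passage 15 and in NSC medium, was made with Brn4, Klf4, c-Myc and eSox17FNV, so it had 1 factor (Brn4, gene Pou3f4) more than the late cells. Untreated Sox2-GFP fibroblasts (MEFs, passage 1, 2 libraries) are given as the starting cell type, although they lacked the Nanog-CreER and Rosa26-tdTomato alleles of the treated cells. Genotype, passage number and time in NSC medium went with the side of the comparison and cannot be told apart from it. The labels do not say whether the 2 replicates of a group were separate cultures, and the spread behind each p may therefore be technical.

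Neural stem cells in culture keep dividing under EGF and FGF and are held in their state by SOX, POU and bHLH factors, among them SOX2, the SOXB1 relatives SOX1 and SOX3, BRN2 and BRN4, OLIG2 and the Notch target HES5. Pluripotency rests on a different set, in which OCT4 (gene Pou5f1) pairs with SOX2. Wild-type SOX17 is an endoderm factor, and exchanges of a few amino acids in its DNA-binding domain alter its pairing with POU factors. OTX2 marks both the anterior neural plate and the formative to primed state of pluripotency. Cells that leave the fibroblast state under such factors can hold transcripts of several of these programs, and in bulk RNA a program in few cells cannot be told apart from less RNA per cell in many.

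The deposited values are whole-number normalized expression values whose read depth is unknown. Every one of the 26 columns had the same highest value, 87546, reached by 10 genes, and a median of 194 or 195, so the columns had been brought to 1 common distribution. Genes at that value are compressed. Genes listed at 0 made up 6.79% to 7.63% of the table in the late cells, 12% to 12.2% in the lines and 10.4% to 10.6% in MEFs. Of the 20468 genes tested, 577 (2.82%) were listed at 0 in some library and never took a value from 1 to 99, so that they step between 0 and a level of 100 or more. For several named genes of this kind, the lowest value above 0 is given.

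Olig2, Pou5f1 and Otx2 separated the late cells from both lines. Olig2, the bHLH factor of ventral and oligodendrocyte progenitors that NSC cultures express strongly, stood at 1 and 4 at day 20 and at 109 and 10 at day 24. It stood at 17713 and 19623 in primary NSCs and at 16249 and 19623 in the induced line. The libraries of the 2 sides did not overlap, which held for 59.7% of all genes tested. Even the highest late library, day 24 replicate 1, was far below the lowest line library. The difference was -10.52 ± 0.51 on the log2 scale (± is the standard error, adjusted p 4.48e-11), where all fold changes are of the value plus 2. MEFs were listed at 0.

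Pou5f1 ran the other way. It stood at 1195 and 1892 at day 20 and at 618 and 2070 at day 24, and was listed at 0 in all 4 line libraries and in both MEF libraries (adjusted p 5.89e-13). Its lowest value above 0 in any library was 582, so it is one of the genes that step from 0. The day 24 libraries differed more from each other than the days did, and the change from day 20 to day 24 did not pass the test (-0.41 ± 0.45, adjusted p 0.554). It was 0.46 (adjusted p 0.517) without day 24 replicate 1 and -1.28 (adjusted p 0.0326) without day 24 replicate 2. In the cells moved to LIF/2i, a pluripotency medium, the value was 9605 in both day 24 libraries.

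Otx2 was at 113 and 154 at day 20 and at 209 and 429 at day 24. The lines were at 1 in 3 libraries and at 21 in replicate 2 of the induced line, and both MEF libraries were at 1. The late cells were higher by 5.33 ± 0.53 (adjusted p 3.11e-07), without overlap. At day 24 in LIF/2i, Otx2 was at 104 and 76, below both NSC-medium libraries of the same day.

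The RefSeq promoters of Olig2 and Pou5f1 are shown because they are marker genes that stood on opposite sides of the comparison, Olig2 lower and Pou5f1 higher in the late cells, and eSox17FNV is a SOX factor. Each line holds the 250 bases before the annotated start on GRCm38.p6, read 5′ to 3′ along the plus strand, at chr16:91225300-91225549 for Olig2 and at chr17:35505782-35506031 for the first of the Pou5f1 starts in the table. Capitals mark ACAATG or ACAAAG, 6-base words of the SOX recognition sequence, searched on both strands.
Olig2: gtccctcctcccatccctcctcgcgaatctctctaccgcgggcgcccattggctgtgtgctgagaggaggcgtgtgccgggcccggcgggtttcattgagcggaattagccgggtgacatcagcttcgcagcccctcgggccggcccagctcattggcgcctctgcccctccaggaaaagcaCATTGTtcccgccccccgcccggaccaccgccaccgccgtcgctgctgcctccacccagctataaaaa
Pou5f1: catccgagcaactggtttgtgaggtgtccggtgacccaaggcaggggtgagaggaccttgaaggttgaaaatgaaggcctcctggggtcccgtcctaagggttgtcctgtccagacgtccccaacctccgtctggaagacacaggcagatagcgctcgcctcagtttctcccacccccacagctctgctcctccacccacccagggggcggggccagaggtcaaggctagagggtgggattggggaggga

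The Olig2 window held 1 match, ACAATG on the minus strand, and the Pou5f1 window held none. Of 32851 promoter windows of this length, 10.7% held ACAATG, 16.5% held ACAAAG and 25.2% held at least one of them, so a match is common. The Olig2 window had 22 CpG dinucleotides and a GC content of 66.8%, and the Pou5f1 window had 8 and 62%. No binding or methylation was measured in the data used here.

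**Figure D1:**
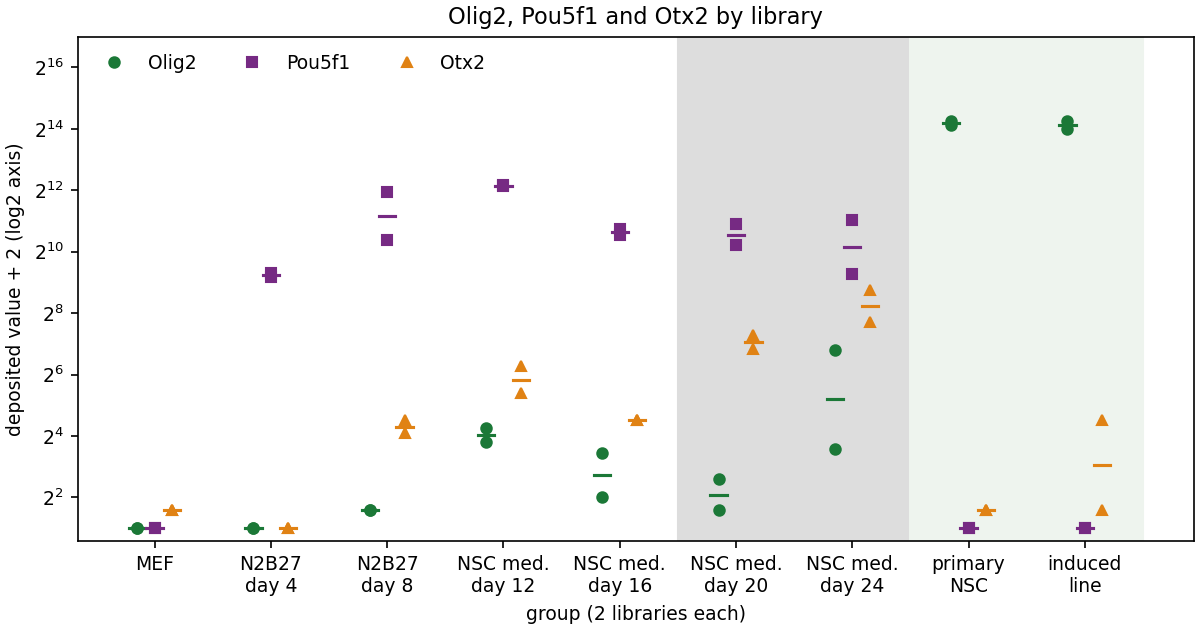
Deposited value plus 2 on a log2 axis for Olig2 (circles), Pou5f1 (squares) and Otx2 (triangles), 1 point per library and a short bar at the mean of the log2 values of each group of 2. The late cells are shaded grey and the lines green. Pou5f1 lies between 618 and 2070 in the late cells and is listed at 0 in the lines and in MEFs, and Olig2 reaches 16249 or more in the lines and at most 109 in the other groups shown.

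Against both lines together, 7426 of 20468 genes (36.3%) were called in the late cells, meaning an adjusted p below 0.05 and a change of at least 2-fold. Of these, 3768 (18.4% of genes tested) were higher and 3658 (17.9%) lower. The split depends on scaling: after rescaling each library to the median ratio, 4483 were higher and 2641 lower, and the median gene moved from -0.18 to 0.09. After a second quantile normalization the split turned the other way, with 3561 higher and 4248 lower and the median gene at -0.23. For 12212 genes (59.7%) the 4 late libraries did not overlap the 4 line libraries, whether called or not. Day 20 taken alone differed from the lines in 7577 genes (37%) and day 24 in 7082 (34.6%). A shared direction was found for 5582 genes, 73.7% of the day 20 calls and 78.8% of the day 24 calls, and both rest on the same line libraries. Either line alone gave similar numbers, 7139 (34.9%) against primary NSCs and 7151 (34.9%) against the induced line. By contrast, the 2 lines differed from each other in 188 genes (0.919%).

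The distance of each library from the lines was taken as the root mean square of its log2 differences from the mean of the 2 lines over all genes tested. At day 20 it was 2.49 and 2.47, and at day 24 it was 2.20 and 2.32. MEFs lay at 2.44 and 2.43, so the day 20 cells were no nearer to the lines than these fibroblasts. The highest values on the way in NSC medium were those of day 12 (2.54 and 2.57) and day 16 (2.58 and 2.54). Both day 24 libraries were below every other treated library of the table, since the LIF/2i cells lay between 2.48 and 2.57 and the N2B27 cells between 2.43 and 2.46. A library of either line lay 0.91 to 0.98 from the mean of the other line. Replicates, measured as single libraries, lay 1.04 from each other at day 20 and 1.09 at day 24. Those of primary NSCs lay 1.09 and those of the induced line 1.03 from each other. A distance to a mean of 2 libraries and one between single libraries are not alike.  Distances from MEFs were 1.67 and 1.70 at day 20 and 1.80 and 1.70 at day 24, shorter than those from the lines in each library. These are descriptions of single libraries and carry no test.

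**Figure D2:**
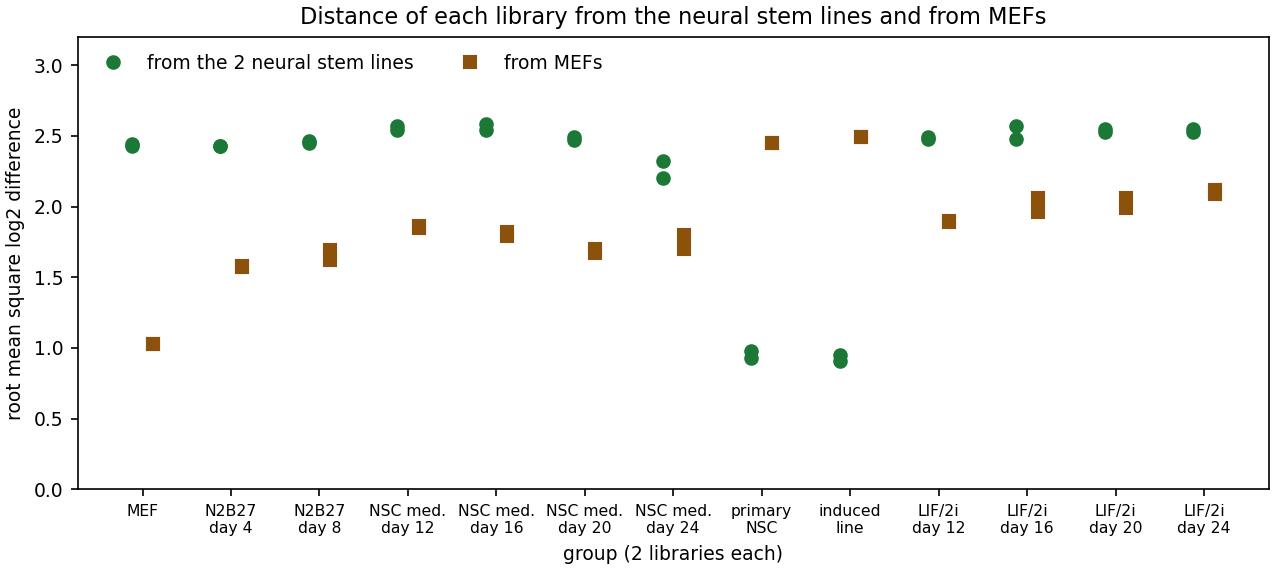
Root mean square log2 difference of each library from the mean of the neural stem lines (circles) and from the mean of the MEFs (squares), 2 libraries per group, with libraries of a line measured against the other line and MEFs against their replicate. The day 24 NSC-medium libraries (2.20 and 2.32) are the treated libraries nearest to the lines, which lie at 0.91 to 0.98.

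The 10 genes that were highest in the late cells relative to the lines, among those without overlap, were Col6a1, H19, Col6a2, Meg3, Agtr2, Postn, S100a6, Col3a1, Col18a1 and Lum. Col6a1, Col6a2, Postn, Col3a1, Col18a1 and Lum encode collagens or other matrix proteins. H19, an imprinted non-coding RNA, stood at the common highest value of 87546 in all 4 late libraries, at 2 and 6 in primary NSCs and at 2 and 1 in the induced line. The second imprinted RNA of the group, Meg3, was at 34147 and 49058 at day 20 and at 39802 and 21964 at day 24, against 1 in all line libraries. Both also exceeded MEFs, where H19 was at 11248 and 10625 and Meg3 at 3249 and 4399. Agtr2, an angiotensin receptor, was at 16249 in both day 20 libraries and at 15440 and 14544 at day 24, was listed at 0 in the lines, and was at 1066 and 949 in MEFs (adjusted p against the lines 2.85e-21).

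The 10 largest decreases were Bcan, Hepacam, Olig1, Olig2, Slc6a11, Mlc1, Plxnb3, Sox8, Hes5 and 2810459M11Rik, chiefly genes of neural and glial progenitors. Bcan, which encodes the brain proteoglycan brevican, was listed at 0 in both day 20 libraries, was at 49 and 1 at day 24, and ran from 21966 to 39810 in the lines (-12.64 ± 0.58, adjusted p 2.43e-11). Hepacam, a glial adhesion protein, was listed at 0 in all 4 late libraries and was at 6056 to 7486 in the lines (adjusted p 3.42e-14). Mlc1, an astrocyte membrane protein, was listed at 0 at day 20, was at 43 and 14 at day 24 and ran from 9069 to 10627 in the lines. In 8 of these 10 genes, day 24 replicate 1 was above its replicate, and Hepacam and Plxnb3 were listed at 0 in both.

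**Figure D3:**
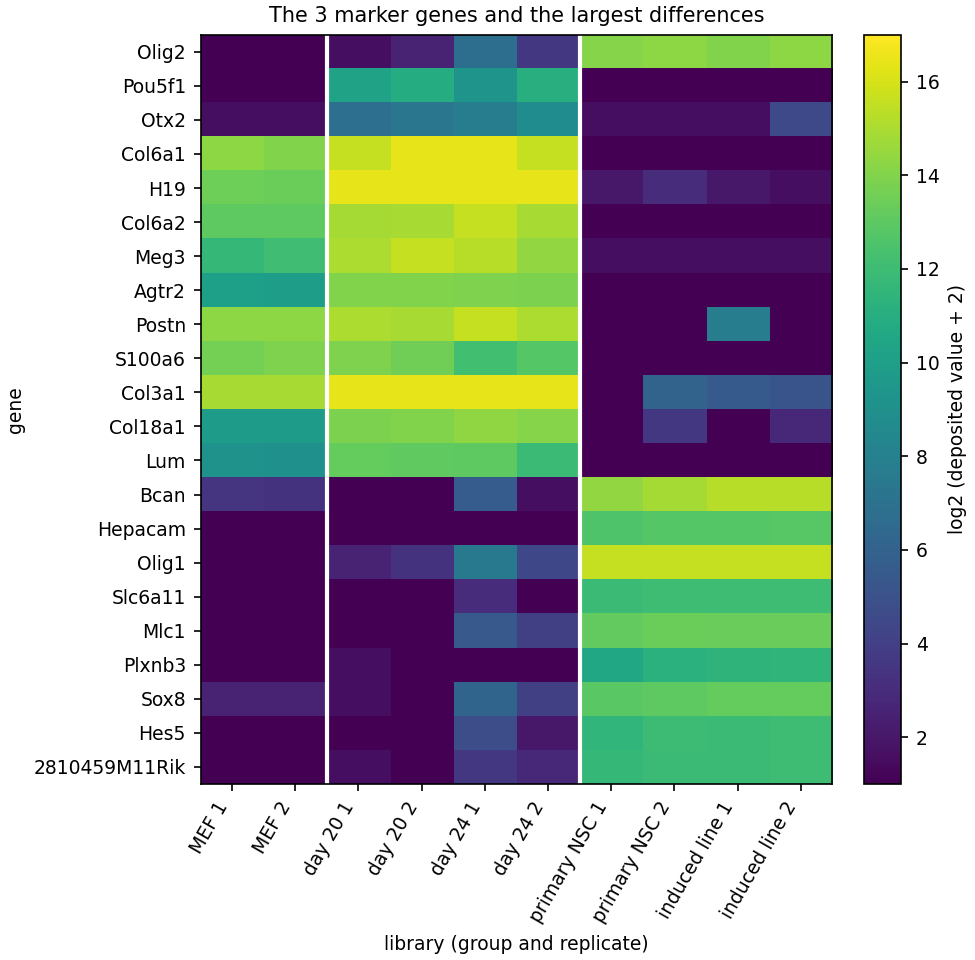
Values as log2 of the deposited value plus 2 for Olig2, Pou5f1, Otx2 and the 10 largest increases and decreases of the late cells against the lines, in 2 libraries each of MEFs, day 20, day 24, primary NSCs and the induced line. The genes higher in the late cells are also found in MEFs, apart from Pou5f1 and Otx2. Among them, H19, Meg3, Agtr2 and Col3a1 are lower in MEFs than in the late cells. Hepacam is listed at 0 in the MEF and late libraries.

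Of 20 tested transcription factors of neural progenitors, 17 were lower in the late cells than in the lines and 1 was higher, with a median of -5.01 against -0.18 over all genes, of which 17.9% were lower. Olig1, the neighbour and relative of Olig2, was at 4 and 8 at day 20 and at 173 and 20 at day 24, against 49062 in all 4 line libraries. Hes5, a Notch target that keeps progenitors undifferentiated, was listed at 0 at day 20, was at 26 and 2 at day 24 and ran from 2958 to 4104 in the lines. The SOXB1 factors that mark neural stem cells were all lower. Sox3 stood at 12 and 21 at day 20, at 476 and 92 at day 24 and at 8623 to 10627 in the lines (-7.23 ± 0.41, adjusted p 3.56e-10).

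Sox1, the most neural-specific of the SOXB1 genes, was at 7 and 19 at day 20, at 291 and 91 at day 24 and at 662 to 1059 in the lines. The shortfall was smallest for Sox2, which also serves pluripotency: 244 and 350 at day 20, 495 and 299 at day 24 and 2942 to 3389 in the lines (-3.21 ± 0.39, adjusted p 2.43e-06). Sox2 was at 1 in both MEF libraries. Nr2e1, the orphan nuclear receptor TLX of adult neural stem cells, was listed at 0 at day 20, was at 4 and 2 at day 24 and at 397 to 476 in the lines.

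Zic1, a zinc-finger factor of the neural plate border and dorsal neural tube, was the 1 factor that was higher. It was at 53 and 96 at day 20 and at 1061 and 382 at day 24, against 0 to 20 in the lines (5.25 ± 0.66, adjusted p 3.93e-06), and MEFs were at 255 and 276. Nfix and Hes1 were not called. Nfix, which NSCs and fibroblasts share, ran from 3944 to 4792 in the late cells and from 4921 to 6459 in the lines. Hes1, a Notch target found in many tissues, was at 1328 and 1165 at day 20 and at 477 and 486 at day 24, and ran from 319 to 676 in the lines (0.87), and it was called higher after rescaling (1.19) and without replicate 1 of the primary NSCs (1.06).

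Among 18 tested genes of the neural stem cell surface and cytoskeleton, 15 were lower and 1 was higher (median -3.55). Nes, the intermediate filament nestin, was at 983 and 947 at day 20, 2766 and 2403 at day 24, and 6323 to 10290 in the lines (-2.28 ± 0.09, adjusted p 3.73e-12). Fabp7, the brain fatty acid-binding protein of radial glia, stood at the highest value of 87546 in all 4 line libraries, so its shortfall of -7.11 ± 1.26 is a compressed value. It was at 317 and 341 at day 20 and at 2070 and 704 at day 24. Ncan, which encodes neurocan, was at 2 and 8, then at 522 and 28, against 13758 to 16245 in the lines. Fgfr3, the FGF receptor of radial glia, was at 3 and 10, then at 102 and 29, against 7354 to 10627. Prom1, which encodes the stem cell surface protein prominin, was the exception, at 257 and 231 at day 20, 807 and 572 at day 24 and 0 to 41 in the lines (6.57 ± 0.59). Fgfr1 and Cd24a were not called.

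Glial genes followed. Of 14 tested genes of radial glia and astrocytes, 11 were lower and only Gja1 was higher (median -4.89). Slc1a3, the glutamate transporter GLAST, was at 219 to 738 in the late cells and at 20427 to 21966 in the lines (-5.96 ± 0.2). Acsbg1 and Mt3 had decreases of -8.97 and -8.11. Gja1, the gap junction protein connexin 43, which fibroblasts and astrocytes share, was at 3328 and 3565 at day 20, 3885 and 5177 at day 24, 786 and 852 in primary NSCs, and 252 in both libraries of the induced line.

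Of 9 tested oligodendrocyte genes, 3 were higher (Pdgfra, Mbp and Myrf) and 4 lower, among them Gpr17, Cnp and Omg, and the sign of the median changed with the scaling and the filter (0.13, and -0.98 after a second quantile normalization). Pdgfra, a receptor of oligodendrocyte progenitors and of fibroblasts, ran from 3139 to 4104 in the late cells and from 193 to 379 in the lines, and MEFs were at 2487 and 2379. Cnp, a myelin enzyme, ran from 162 to 274 in the late cells and from 2286 to 4103 in the lines. Sox10, the defining factor of the lineage, was not analysed here.

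Among 17 tested neuronal genes, 3 were higher, 3 lower and 11 not called, shares near those of all genes (18.4% higher and 17.9% lower). Stmn2, a growth cone protein, was at 1333 and 983 at day 20 and at 1389 and 1108 at day 24 and listed at 0 in the lines (adjusted p 1.19e-14), with 392 and 382 in MEFs and a lowest value above 0 of 382. Map2, the dendritic microtubule protein, was at 373 and 380 at day 20, at 3440 and 939 at day 24, and at 39810 or 87546 in the lines. Dcx, doublecortin of migrating neuroblasts, was at 284 and 343 at day 20 and 2545 and 640 at day 24, and the lines at 343 to 403, with no difference called (0.76 ± 0.97). The late side of Dcx and of Tubb3 (186 and 232, then 2739 and 1038, against 425 to 1003) thus spanned both sides of the lines.

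Signalling genes of the neural state were lower as well. Of 16 tested Notch pathway genes, 9 were lower and 3 (Notch4, Heyl and Jag2) higher, with a median of -2.04. The ligand Dll1 was at 5 and 17, then at 277 and 29, against 3366 to 6727 in the lines (-7.26 ± 0.66), and Lfng, which modifies Notch receptors, was at 13 and 7, then at 134 and 58, against 2820 to 3787. Notch3, a receptor that mural cells also use, ran from 2567 to 4270 in the late cells and from 5432 to 6861 in the lines and missed the 2-fold threshold (-0.86 ± 0.23). Of 14 tested targets of canonical Wnt signalling, 7 were lower and 2 (Dkk1 and Nkd2) higher. Axin2, the most general of these targets, was at 3 and 10 at day 20, 57 and 23 at day 24 and 1016 to 1096 in the lines. After rescaling, 4 Wnt targets were higher and 7 lower.

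Regional identity genes split. Of 13 tested forebrain and midbrain factors, 5 were lower (Six3, Otx1, Lhx2, Dlx2 and En2) and 4 higher (Otx2, En1, Gbx2 and Pax2). Six3, an anterior neural plate factor, ran from 0 to 8 in the late cells and from 787 to 986 in the lines. Hox genes, which give trunk position and are silent in forebrain, were in the main higher. Of 34 tested, 27 were higher and 2 lower, with a median of 3.98 (2.49 with a pseudocount of 8, because for 22 of them 1 side is listed at 0). Hoxc8 was at 542 and 473 at day 20, 217 and 226 at day 24, and 0 in the lines, and MEFs were at 508 and 499, so day 20 stood near the fibroblast level and day 24 below it. The 2 lower genes were the anterior Hoxa3 (112 to 203 against 286 to 327) and Hoxa4 (10 to 30 against 46 to 72), and the call of Hoxa3 was lost after rescaling (-0.89).

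Of 24 tested genes of naive pluripotency, 21 were higher in the late cells, against 18.4% of all genes, 1 was lower and 2 (Klf5 and Nr5a2) were not called. The median was 5.65 with a pseudocount of 2 and 3.98 with a pseudocount of 8, since 1 side of 10 of these genes is listed at 0. Dppa5a, a gene of the inner cell mass, was at 2655 and 3165 at day 20 and at 410 and 1502 at day 24, with 0 in the lines and MEFs. Sall4, a partner of OCT4, was at 187 and 485 at day 20 and 441 and 476 at day 24, again with 0 in both lines. Zfp42 (Rex1) was at 107 to 175 in the late cells and at 0 in both lines, with a lowest value above 0 of 107. Lin28a, an RNA-binding protein of pluripotent cells that blocks let-7, was at 87 and 339, then at 962 and 1239, and listed at 0 in both lines and in MEFs.

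Nanog and Esrrb, central regulators of the naive state, differed less. Nanog was at 492 and 599 at day 20 and 342 and 692 at day 24, and at 119 to 148 in the lines and 84 and 91 in MEFs (1.91 ± 0.18, adjusted p 1.29e-07). The treated cells and these fibroblasts differ at the Nanog-CreER allele, and the lines are described as Sox2-GFP only. The part of this allele in the Nanog differences was not tested. Esrrb was at 91 and 238, then at 21 and 64, against 16 to 49 in the lines, with overlap (1.22 ± 0.35), and the call was lost without day 20 replicate 2 or without day 24 replicate 2. Tdgf1, the Nodal co-receptor Cripto, was at 754 and 1307 at day 20, 398 and 2200 at day 24 and 0 to 66 in the lines. Alpl, tissue-nonspecific alkaline phosphatase, was the 1 gene that was lower (57 to 208 against 214 to 259), and it was not called after rescaling.

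Genes of formative and primed pluripotency were mixed. Of 18 tested, 9 were higher, 2 (Sall2 and Zic2) lower and 7 not called. Dnmt3b, the de novo methyltransferase that rises in the epiblast, was at 409 and 1108 at day 20 and 875 and 1900 at day 24, against 66 to 87 in the lines (3.56 ± 0.27). Its cofactor Dnmt3l was at 155 to 777 in the late cells and at 0 or 5 in the lines. Fgf5, a marker of the primed epiblast, was at 41 and 88, then at 74 and 260, against 23 to 44, a small and overlapping difference (1.43 ± 0.49, adjusted p 0.0175) that was lost without replicate 2 of any of the 4 groups compared. Pou3f1 (Oct6) was not called (36 to 300 against 44 to 78, 0.96), but was called after rescaling (1.27) and without replicate 1 of day 20 (1.26) or of day 24 (1.15).

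Nodal pathway genes, which act in the epiblast, were higher in 12 of 15 cases and lower for the receptor gene Acvr2b. Lefty1 and Lefty2 encode inhibitors of Nodal and are among its targets. Lefty1 was at 244 and 590 at day 20 and at 222 and 1120 at day 24, and Lefty2 at 78 and 271, then at 82 and 699, both listed at 0 in the lines. Inhba, an activin subunit, was at 922 to 2669 in the late cells and at 0 or 30 in the lines, but at 9066 and 11248 in MEFs. Of 14 tested genes of the 2-cell embryo and germ line, 12 were higher and 2 (Ddx4 and Asz1) not called. Zscan4c was at 323 to 484 in the late cells, at 2 in all line libraries and at 1 in MEFs. Members of the Zscan4 cluster are near-identical copies, so the counting may divide reads among them. Dazl, a germ cell RNA-binding protein, was at 560 to 747 in the late cells and at 0 in 3 line libraries, with 388 in replicate 2 of the induced line. Its lowest value above 0 was 318.

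Lin28 and let-7 target genes were higher in 10 of 11 cases. Igf2bp1, an oncofetal mRNA-binding protein, was at 824 and 1198 at day 20, 2005 and 1553 at day 24 and 0 in the lines, but at 1207 and 1361 in MEFs. Lin28b was at 325 and 349, then at 782 and 713, with 0 in the lines and 200 and 220 in MEFs. Lin28a, by contrast, was listed at 0 in MEFs.

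Of 28 tested fibroblast and matrix genes, 27 were higher in the late cells than in the lines, with a median of 8.30 (7.37 with a pseudocount of 8). The summed value of this list was 640831 to 721722 in the late libraries, 571617 or more in MEFs and 17827 to 23275 in the lines. Col1a1, the main fibrillar collagen, was at the highest value of 87546 in all late and MEF libraries and at 31 to 40 in the lines. Col3a1 was at 87546 in all late libraries, at 30887 in both MEF libraries and at 0 to 66 in the lines. Postn, periostin, ran from 30887 to 49058 in the late cells and was listed at 0 in 3 line libraries, with 206 in replicate 1 of the induced line. Thy1 and Prrx1 stood between MEFs and the lines. Thy1, a fibroblast surface protein, was at 8087 and 7685 in MEFs, 1211 and 1025 at day 20, 148 and 488 at day 24 and 1 to 10 in the lines. Prrx1, a mesenchymal homeobox factor, was at 20420 and 19620 in MEFs, 4921 and 5969 at day 20, 3677 and 3914 at day 24 and 163 to 198 in the lines. Fbln2 was the 1 gene not called, at 5900 to 28994 against 11250 to 16249, and its sign turned without day 24 replicate 2.

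Contractile genes and YAP targets were higher in 11 of 12 cases. Ctgf, a matrix signalling protein, was at 8369 and 8087 at day 20, 880 and 2801 at day 24 and 0 in the lines, and MEFs were at 21964. Thbs1, thrombospondin, was at 49058 in both day 20 libraries, 11669 and 30887 at day 24 and 38 to 74 in the lines. Factors of epithelial-mesenchymal transition were divided, with 6 higher, 2 lower and 1 not called of 9. Twist1 (767 to 867) and Snai2 (576 to 866) were listed at 0 in all line libraries. Zeb1 and Tcf4, which neural progenitors also express, were lower: Zeb1 ran from 2328 to 3944 in the late cells and from 14544 to 15440 in the lines (-2.38 ± 0.11).

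Of 11 tested imprinted growth genes, 8 were higher and 3 (Mest, Peg3 and Cdkn1c) not called. Dlk1, a paternally expressed Notch-like protein, was at 5969 and 7486 at day 20, 20420 and 13758 at day 24 and 5 to 9 in the lines (10.35 ± 0.35). Plagl1, a zinc-finger factor, was at 2979 and 5898, then at 15437 and 8617, against 36 to 40. Both were above MEFs, at 4153 and 3809 for Dlk1 and 672 and 655 for Plagl1. Mest was at 6861 and 11250, then at 49062 and 24923, on both sides of the lines (12950 to 21966).

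Epithelial genes were higher in 20 of 22 cases and lower for Tjp3 alone. Krt8, a keratin of simple epithelia, was at 2942 in both day 20 libraries, 1108 and 2040 at day 24, 75 and 107 in MEFs and 0 in the lines (adjusted p 8.24e-17). Cdh1, E-cadherin, was at 592 and 863, then at 425 and 868, against 0 or 17 in the lines and 4 and 0 in MEFs. Epcam was at 250 and 476, then at 208 and 708, with 0 in the lines and MEFs. Twist1, Snai2 and Snai1, which repress Cdh1, were thus found in the same late libraries as Cdh1, and bulk RNA does not show whether in the same cells.

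Keratinocyte genes were higher in 15 of 17 cases, and 11 of 17 were higher than in MEFs, with 1 lower. Perp, a desmosome protein, was at 2048 and 1720 at day 20, 514 and 1181 at day 24 and 0 in the lines. Krt14 was at 458 and 289 at day 20 and at 9 and 8 at day 24, with 0 in the lines. The defining members were low: Krt5 ran from 0 to 11, and Trp63 was at 69 to 125 against 0 to 64, a call that was lost under 9 alternatives, among them leaving out any of the 4 late libraries. The summed value of the list was 4364 and 3137 at day 20, 968 and 1639 at day 24, 532 and 552 in MEFs and 66 to 112 in the lines.

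**Figure D4:**
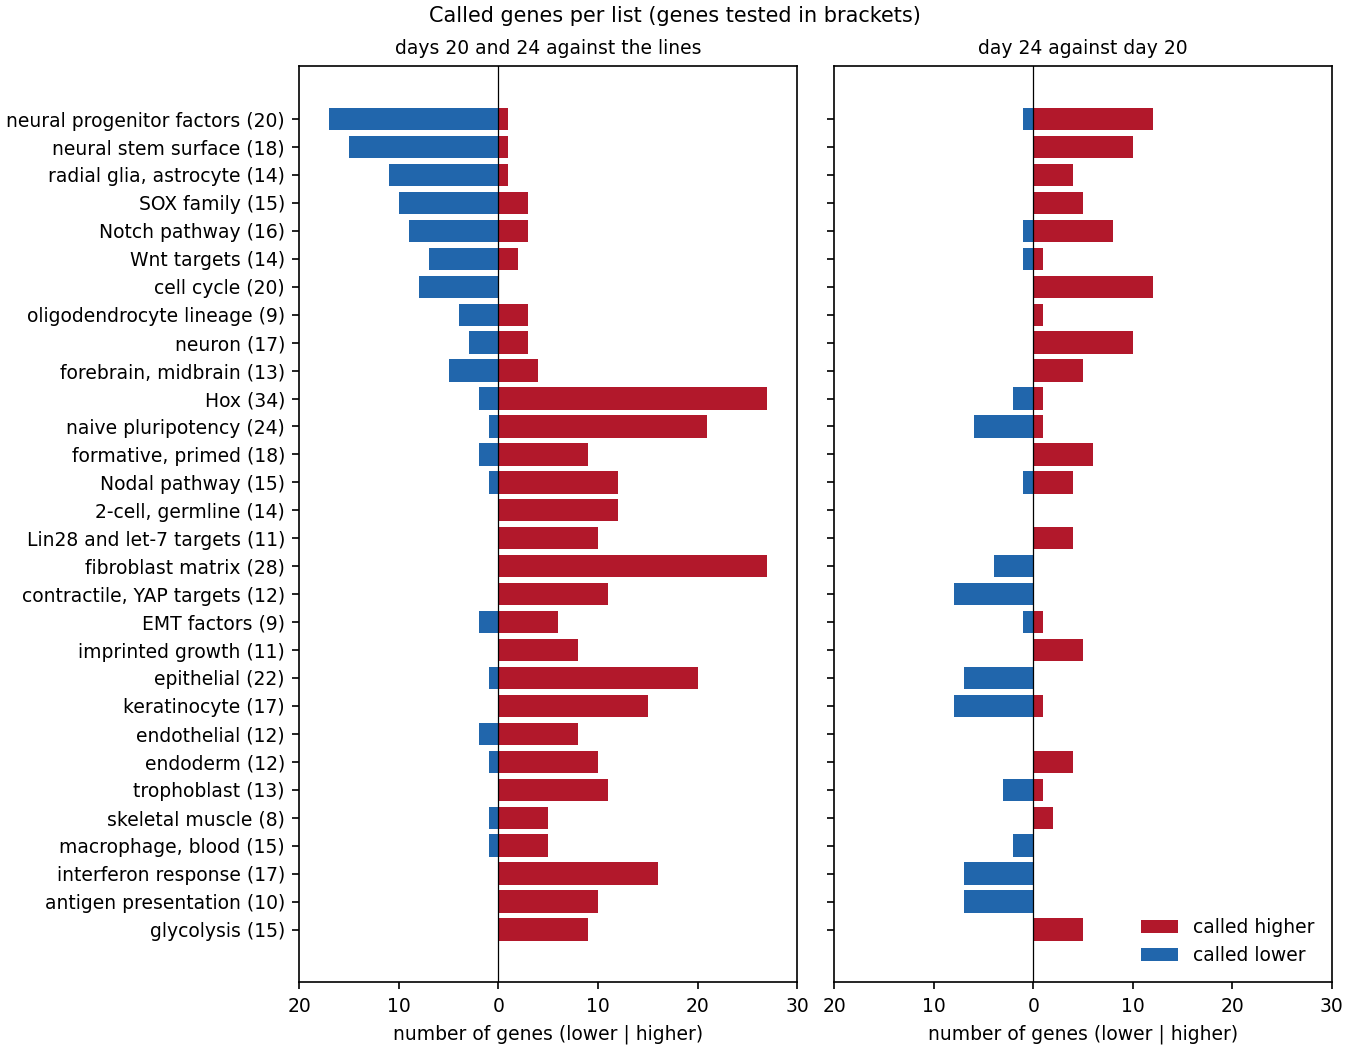
Number of genes called higher (right) and lower (left) in 30 gene lists, for the late cells against the lines and for day 24 against day 20, with the number of genes tested in brackets. Most genes of the neural progenitor, surface and radial glia lists are lower in the late cells, and 12 of 20, 10 of 18 and 4 of 14 listed genes rise at day 24, while the fibroblast, Hox, naive pluripotency and epithelial lists are higher.

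Markers of other cell types that such a culture could hold were read in the same way, and their part in the differences above was not tested. Over all genes, 18.4% were higher and 17.9% lower. Of 12 endothelial genes, 8 were higher and 2 (Plvap and Vwf) lower, with Cdh5 at 286 to 567 against 0 or 5, and Pecam1 at 95 to 192 against 33 to 62. The summed value of the 12 was 1824 to 2788 in the late cells, 546 to 672 in the lines and 3198 and 3541 in MEFs. Against MEFs, 5 of the 12 were higher and 3 lower in the late cells. Of 12 endoderm genes, 10 were higher, led by Col4a1 (14541 to 24916 against 93 to 143), which fibroblasts also express (13758 and 15437 in MEFs). The endoderm factor Gata6 was at 57 to 96 and Gata4 at 2 to 86, both with 0 in the lines and with MEFs at or above the day 20 level. Of 13 trophoblast genes, 11 were higher. Tpbpa was at 419 to 577 with 0 in the lines and MEFs and a lowest value above 0 of 167, while Elf5, a defining factor, was at 20, 23, 28 and 0. Skeletal muscle genes were higher in 5 of 8 cases, and Actc1 was lower. The 5 fell to 2 with a pseudocount of 8, and the count was also smaller without replicate 2 of either day. The summed value of the muscle genes was 118 to 341 in the late cells, 330 to 726 in the lines and 1417 and 1424 in MEFs.

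Macrophage and blood genes were not a feature of either side. C1qa and Tyrobp, which are defining for macrophages, were listed at 0 in all 8 libraries, and Ptprc (CD45) was at 1 except for 120 in day 20 replicate 2. The summed value of the 15 genes was 131 to 371 in the late cells, 42 to 120 in the lines and at least 4084 in MEFs. Of the 5 called higher (3 with a pseudocount of 8), Csf1r was at 25 to 70 and Cd14 at 18 to 66, with 0 in the lines.

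Interferon response genes were higher in 16 of 17 cases (median 5.30, and 3.46 with a pseudocount of 8). Against MEFs, 1 of the 17 was higher and 0 lower in the late cells (median 0.02), and 14 were lower in the lines. Bst2, an antiviral membrane protein, was at 5538 and 7687 at day 20, 1900 and 1913 at day 24, 2605 and 2417 in MEFs and 0 in the lines. Ifit1 was at 1228 and 3079, then at 510 and 500, against 1 in the lines and 899 and 883 in MEFs. All 10 tested genes of MHC class I antigen presentation were higher (median 4.42). Against MEFs, 4 of the 10 were higher and 0 lower in the late cells (median 0.93), and 9 were lower in the lines. H2-K1, a class I heavy chain, was at 10024 and 12178 at day 20, 3648 and 5969 at day 24 and 29 to 34 in the lines. Members of the class I family are similar in sequence, so reads may be shared among them. Psmb8, an immunoproteasome subunit, was at 749 and 692, then at 91 and 162, with 0 in the lines.

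Of 20 tested cell cycle genes, 8 were lower and 12 not called (median -0.54), 5 of them after rescaling. Plk1, a mitotic kinase, was at 138 and 288 at day 20, 924 and 615 at day 24 and 1805 to 2889 in the lines (-2.52 ± 0.18). Top2a was at 1771 and 2642, then at 13758 and 9066, against 19620 to 21964. Pcna, of DNA replication, was not called (-0.68 ± 0.1). Of 15 tested genes of CDK inhibitors, p53 targets and the senescence secretome, 7 were higher, with Il6 at 2591 and 2327 at day 20 and 697 and 802 at day 24, and Mmp3 at 6861 and 4921, then at 329 and 2929, both at 0 in the lines. The CDK inhibitor Cdkn1b was lower (1176 to 1913 against 2604 to 3249, -1.09), a call that was lost after rescaling (-0.76) and without day 24 replicate 2 (-0.94).

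Signalling genes outside the neural set differed in part. Of 14 tested ERK feedback genes, 7 were higher and Etv5, which FGF induces, was lower (1456 to 2071 against 5116 to 8617). Of 10 STAT3-related genes, 7 were higher, led by the oncostatin receptor gene Osmr (2343 to 6323 against 0 to 54), and the LIF receptor gene Lifr was lower (354 to 1553 against 2132 to 2200). Stat3 itself was not called (0.06 ± 0.08). Of 16 BMP pathway genes, 7 were higher and 2 (Bmp7 and Bmpr1b) lower, with the BMP antagonist Grem1 at 517 and 425, then at 207 and 316, against 1 in the lines. Of 15 glycolysis genes, 9 were higher and 6 not called. The glucose transporter gene Slc2a3 was at 1879 and 2978 at day 20, 10289 and 10024 at day 24 and 363 to 488 in the lines. Of 18 cholesterol synthesis genes, 3 were lower and 15 not called, a share near the 17.9% of all genes that were lower, with Hmgcs1 at 3064 to 8832 against 24923 to 28994.

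The genes of the delivered factors cannot be read as endogenous, since the values do not divide transgene from endogenous reads. Sox17 was at 373 and 451 at day 20 and 177 and 319 at day 24 and listed at 0 in both lines and in MEFs, with a lowest value above 0 of 130. During Dox it had reached 11250 in both day 12 libraries and 3064 and 4971 at day 16. Klf4 was at 1222 and 1311, then at 217 and 293, against 48 to 61 in the lines and 1263 and 1301 in MEFs (3.28 ± 0.2). Myc was at 824 and 707, then at 304 and 439, and the lines at 520 to 1477, and the difference missed the 2-fold threshold (-0.61 ± 0.2). Pou3f4 (Brn4), which the late cells had not been given, was listed at 0 in both day 20 libraries, was at 176 and 55 at day 24 and at 995 to 1120 in the lines (-6.22 ± 0.41). The induced line, made with Brn4, was at 1056 and 995, and primary NSCs, without it, at 1120 and 1059. In the SOX family 10 of 15 tested genes were lower and only Sox17, Sox15 and Sox7 were higher.

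From day 20 to day 24, 2021 genes (9.87%) changed, 1090 (5.33%) upward and 931 (4.55%) downward. Of the 20 neural progenitor factors 12 rose and only Hes1 fell, and 10 of the 18 surface genes, 10 of 17 neuronal genes, 12 of 20 cell cycle genes and 8 of 16 Notch genes rose. Sox3 rose by 3.56 ± 0.58 (adjusted p 0.000575) and Sox1 by 3.59 ± 0.62, and Olig2 by 3.10 ± 0.72 (adjusted p 0.00563), from levels near 0. The Olig2 change was 1.5 (adjusted p 0.0774) without day 24 replicate 1 and 2.60 (adjusted p 0.0734) without day 20 replicate 1, and so was not called in either case, nor in a fit of only the compared groups. Pou3f4 rose from a level listed at 0 to 176 and 55 (adjusted p 1.74e-05). Nes rose by 1.42 ± 0.13 and Top2a by 2.37 ± 0.2. Sox2 was not called (0.39 ± 0.55). Even after these rises Olig2 and Sox3 of day 24 stayed below every line library.

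Other genes fell in the same interval. Of the contractile list 8 of 12 fell, and of the keratinocyte, interferon, antigen presentation and epithelial lists 8 of 17, 7 of 17, 7 of 10 and 7 of 22. The largest fall was that of Fosb, an immediate-early AP-1 gene, from 8617 and 7161 to 19 and 23 (-8.42 ± 0.49, adjusted p 5.77e-08). Krt14 fell by 5.12 and Krt6a by 4.37 on the log2 scale. Klf4 fell by 2.32, and Junb, another AP-1 gene, fell by 2.78. In naive pluripotency 6 of 24 genes fell (among them Dppa5a and Esrrb) and only Lin28a rose, by 2.65 ± 0.46.

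Most of the other largest changes of this interval were in genes that step from 0. Stx19, Ncam2, Gpr22 and Gabra2 were listed at 0 in both day 20 libraries and ran from 433 to 719 at day 24. Tfec, Vmn1r45 and Olfr307 ran from 334 to 501 at day 20 and were listed at 0 at day 24. The lowest value above 0 of these 7 genes in any library ranged from 254 (Vmn1r45) to 351 (Tfec). Of the 2021 calls, 71 were in genes of this kind. The calls of Stx19, Ncam2 and Gabra2 were lost without any 1 of the 4 late libraries, that of Tfec without either day 20 library or day 24 replicate 1, and that of Vmn1r45 without replicate 1 of either day.

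The 2 day 24 libraries differed from each other in the neural genes and in the pluripotency genes. In replicate 1, Olig2 (109 against 10), Ncan (522 against 28), Sox3 (476 against 92), Elavl3 (520 against 53) and Dcx (2545 against 640) were higher than in replicate 2. In replicate 2, Pou5f1 (2070 against 618), Tdgf1 (2200 against 398), Lefty2 (699 against 82) and Epcam (708 against 208) were higher. Summed over the lists, neural progenitor factors stood at 15977 in replicate 1 and 9800 in replicate 2, against 9882 and 9594 at day 20. Naive pluripotency genes stood at 4935 and 11759, against 8980 and 12923 at day 20. The number of genes changed between the days was 1073 without day 24 replicate 1 and 2635 without day 24 replicate 2, and 1114 and 2123 without day 20 replicate 1 and replicate 2. Without day 24 replicate 1, 6 rather than 12 neural progenitor factors and 4 rather than 10 surface genes rose, and without day 20 replicate 1 it was 7 and 5. Interferon genes that fell numbered at most 2 without day 20 replicate 2 or without either day 24 replicate, and antigen presentation genes 2 or 3 without either day 20 replicate or day 24 replicate 1. Without day 24 replicate 1, 4 contractile genes fell. Epithelial genes that fell numbered 4 without replicate 1 of either day, and Notch genes that rose numbered 5 without day 20 replicate 1 and 4 without day 24 replicate 1. Naive genes that fell numbered 2 without day 20 replicate 2 and 1 without day 24 replicate 1. Of the 14 genes of radial glia and astrocytes, 4 rose, and this fell to 0 without replicate 1 of either day, to 2 without day 20 replicate 2 and to 1 in a fit of only the compared groups. The counts of the cell cycle, neuronal and keratinocyte lists stayed within 1.5 times under each omission.

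**Figure D5:**
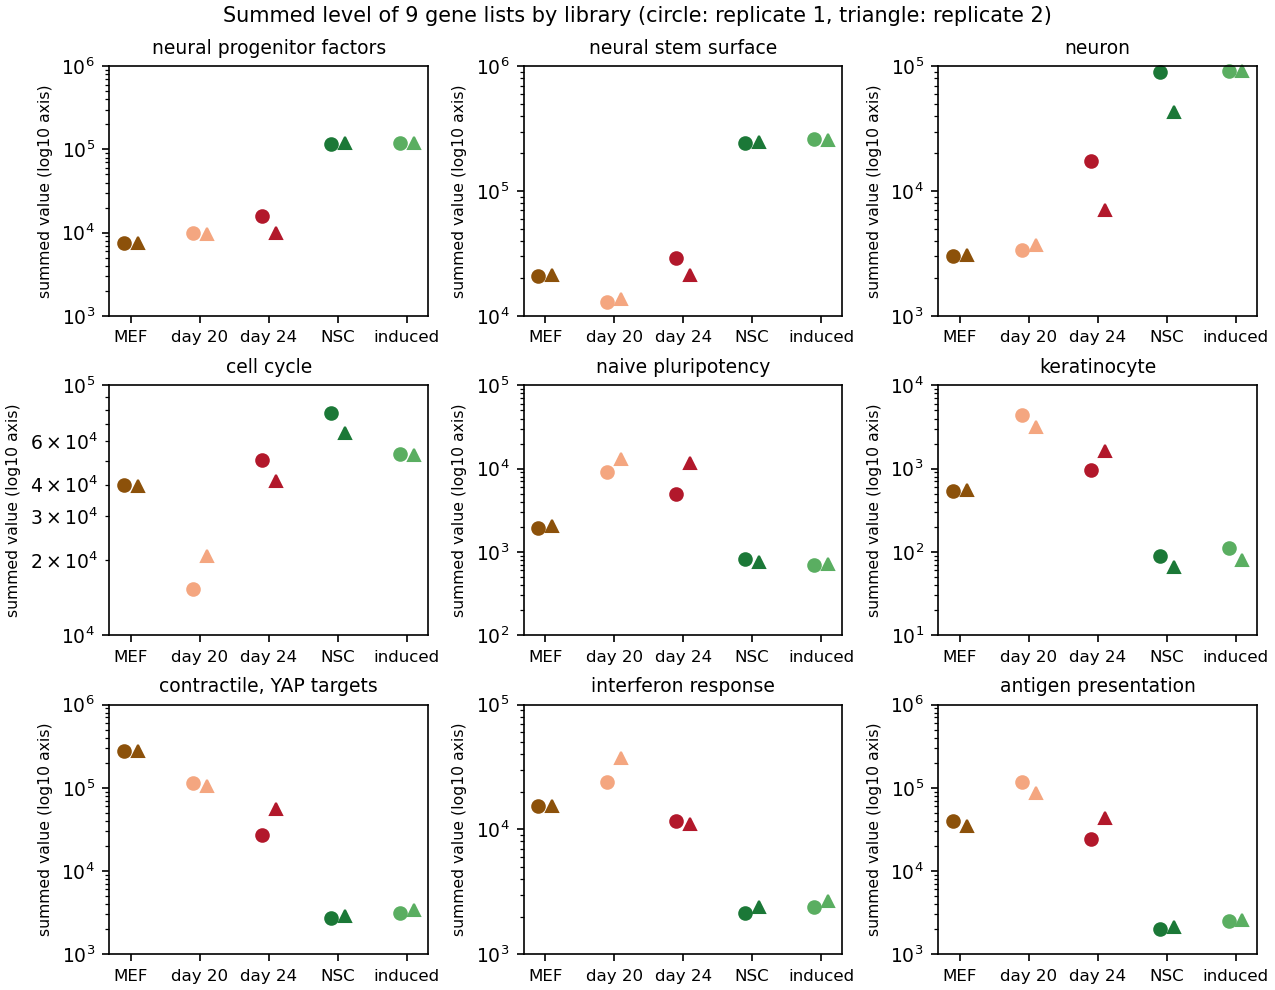
Summed deposited value of 9 gene lists on a log10 axis in each library of MEFs, day 20, day 24, primary NSCs and the induced line (circles replicate 1, triangles replicate 2). Neural progenitor factors reach 15977 in day 24 replicate 1 and 9800 in replicate 2, against 116323 to 119905 in the lines, and naive pluripotency genes are lower in day 24 replicate 1 (4935) than in replicate 2 (11759).

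The 2 lines were close to each other. Of 188 called genes (0.919%), 91 were higher and 97 lower in the induced line, and without replicate 2 of the primary NSCs the count was 450. Of the largest differences, Slitrk6, a neuronal transmembrane protein, was at 487 and 512 in primary NSCs and listed at 0 in the induced line, and Atf7ip2 was at 395 and 437 and listed at 0. Gm10147 (558 and 488) and Zfp300 (162 and 152) were present in the induced line and listed at 0 in primary NSCs. The late cells stood at 566 to 828 for Slitrk6 and 241 to 282 for Zfp300. Otor, the vomeronasal receptor gene Vmn1r220 and the predicted genes Gm14632 and Gm10378 completed the set.

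Set against MEFs, the late cells differed in 4343 genes (21.2%), with 2455 (12%) higher and 1888 (9.22%) lower. The lines differed in 7193 (35.1%), with 3669 (17.9%) higher and 3524 (17.2%) lower. After rescaling, 2834 were higher and 1455 lower in the late cells, and 3254 higher and 3817 lower in the lines, so the larger side of the lines' split changed. After a second quantile normalization the late cells had 2262 higher and 2257 lower. Both comparisons share the 2 MEF libraries. Neural progenitor factors were higher than in MEFs for 11 of 20 genes in the late cells (median 1.67) and 17 of 20 in the lines (median 7.19). Fibroblast genes were higher for 9 and lower for 9 of 28 in the late cells, and lower for 26 in the lines. Naive pluripotency genes were higher for 21 of 24 in the late cells and 3 in the lines, and Hox genes were lower for 17 of 34 and 28 of 34. Macrophage genes were lower than in MEFs for all 15 genes on both sides.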

How the data were processed

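RNA of 26 mapped libraries in 13 groups was compared within 1 deposited table of 20558 genes, the table of the parallel experiment in NSC medium and LIF/2i. The authors deposited its values as normalized tag counts, recorded here as a score, since they are whole numbers that share 1 distribution and no raw counts were used. Reads were aligned with Bowtie2 2.0 to mm10 and quantified with RSEM, per the submitters' processing notes. Whether counting used strand is not given in the sources used here. Groups came from the labels. Columns of primary NSCs could be matched to their group only, and 3 columns that match no labelled sample were not used.

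Genes that reached 10 in 2 or more libraries were tested (20468). Log2 of the value plus 2 was fitted with 1 mean per group and a variance trend in limma 3.58.1 (R 4.3.3), with 13 residual degrees of freedom, and 9 two-sided contrasts were adjusted by Benjamini and Hochberg over all genes tested. A gene was called at an adjusted p below 0.05 and a change of at least 2-fold. "Rose", "fell", "higher" and "lower" with a count refer to called genes. Against a group at 0, no fold is printed. The script was tested on simulated data. Replicate numbers were checked for pairing: deviations of same-numbered libraries correlated at -0.0295 to 0.0076, so no deviation shared by replicate number was seen. With 2 libraries per group this does not show whether same-numbered libraries came from 1 culture.

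The 39 gene lists (563 genes, of which 535 were tested) came from general knowledge. The members and lists were chosen with earlier results of these data known, so a list describes the samples and is not independent evidence. Named genes were Olig2, Pou5f1, Otx2, the factor genes, preset cell type markers, the 10 largest changes each way between the late cells and the lines and the 4 largest each way between the days and between the lines (called, no overlap, mean of at least 100 on a side), in each list up to 4 called genes with the largest change and up to 2 uncalled genes with the highest level, and up to 5 genes that ran against their list. A few genes that the rule covers are not reported here. Promoters came from RefSeq.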

Additional observations from a re-analysis of the deposited data

Results flagged for a closer look

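Of the 143 genes named for the comparison with the lines, 63 also differed between day 24 and day 20, against 9.87% of all genes tested. The 143 include the largest changes and chosen markers, so they are not a sample of all genes. By the test of that difference in the same limma fit, the distance of the 63 from the lines was not the same on the 2 days. At day 24, 42 were higher and 21 lower, against 5.33% and 4.55% of all genes tested. Some of these differences depended on single libraries. The Olig2 difference was smaller without day 24 replicate 1, and it was not called in a fit of only the compared groups. The median differences of the neural progenitor and surface lists were also smaller without day 24 replicate 1. Slc1a3, at 1.01, lay close to the 2-fold threshold. For most of the 63 genes the difference is not given with single libraries left out. The values below are log2 differences of day 24 from day 20, or the mean level of day 24 where day 20 is listed at 0. In neural genes the differences were 3.10 for Olig2, 3.00 for Olig1, 3.79 for Sox8, 3.59 for Sox1, 3.56 for Sox3, 1.42 for Nes, 1.01 for Slc1a3, 3.12 for Zic1, 4.31 for Ncan, 2.87 for Fgfr3, 2.22 for Cd24a, 4.57 for Omg and 1.90 for 2810459M11Rik. Pou3f4, Bcan, Mlc1, Hes5 and Nr2e1 were listed at 0 at day 20 and had mean levels of 115.5, 25, 28.5, 14 and 3 at day 24. Neuronal and regional genes differed by 2.25 for Map2, 3.01 for Tubb3, 4.00 for Elavl3, 1.75 for Six3 and 2.07 for Lhx2. Notch and Wnt genes differed by 3.01 for Dll1, 2.96 for Lfng, 2.31 for Axin2 and -1.37 for Hes1.

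Among pluripotency and growth genes the differences were -1.88 for Dppa5a, -1.94 for Esrrb, -1.54 for Alpl, 2.65 for Lin28a, 1.14 for Lin28b, 1.99 for Pou3f1, 1.04 for Sall2, 2.91 for Zic2, 1.46 for Plagl1, 2.12 for Peg3 and 1.99 for Mest. Mesenchymal genes differed by -1.22 for S100a6, -2.04 for Thy1, -1.39 for Fbln2, -2.39 for Ctgf, -1.37 for Thbs1, -1.19 for Hoxc8 and 1.05 for Tcf4. For the factor genes they were -2.32 for Klf4 and -1.06 for Myc. Keratinocyte, lineage and immune genes gave -5.12 for Krt14, -4.37 for Krt6a, -1.27 for Perp, 2.99 for Gata4, 2.64 for Actc1, -1.77 for Bst2, -1.94 for Ifit1 and -2.55 for Psmb8. The remaining genes gave 1.91 for Plk1, 2.37 for Top2a, -1.71 for Il6, -2.56 for Mmp3, -2.78 for Junb, 1.52 for Lifr, 2.10 for Slc2a3 and 1.19 for Hmgcs1.

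Between the lines, 2 of the 143 genes differed, against 0.919% of all genes tested. Gja1 was lower in the induced line by a log2 difference of -1.69, and Osmr had a mean level of 44 there and was listed at 0 in primary NSCs. Groups of 2 libraries are too small for the check of single outlying samples.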

How the results depend on the processing

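Read depth is unknown, so low values carry no interval, and genes at the common highest value or stepping from 0 limit what a fold change can show. With the adjusted p alone, the counts were 14140 for the late cells against the lines (5908 higher, 8232 lower), 13500 at day 20, 12808 at day 24, 5115 between the days, 12885 against primary NSCs, 13098 against the induced line, 353 between the lines, and 10301 and 11642 against MEFs for late cells and lines. With a threshold of 4-fold they were 4322 (1674 lower), 4573, 3964, 688, 4125, 4240, 122, 2103 and 4327. Leaving out 1 library at a time gave 7060 to 7534 for the first comparison (3602 to 3825 higher, 3458 to 3709 lower), 1073 to 2635 between the days, and 176 to 450 between the lines, and the other counts stayed within 1.5 times. The cause of these shifts was not tested. The replicate block gave 7434, 2036 and 199 for these 3 comparisons, so no count moved by 1.5 times. Among the genes, the block lost the calls of Gabra2 and Otor.

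An alternative chosen after seeing the data, without the 577 genes that step from 0, left 7123, 1950 and 183. The other settings, a pseudocount of 1 or 8, no or a stricter filter, only the groups compared, 2 further scalings and no variance trend, kept each of these counts over all genes within 1.5 times. Some counts within gene lists moved by more and are given beside those lists.

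Of 172 results for named genes, 131 kept direction and call under all alternatives other than the one chosen later, and 6 turned sign, all of them uncalled in the main fit. For the late cells against the lines, Tubb3 was 0.16 and Peg3 0.30 after rescaling. Leaving out 1 library at a time gave -0.51 to 0.19 for Tubb3, -0.34 to 0.30 for Peg3, -0.15 to 0.50 for Fbln2, -0.06 to 0.43 for Mest and -1.58 to 0.04 for Elavl3. For Pou5f1 between the days it gave -1.28 to 0.46. Elavl3 was called at the low end of its range, without day 24 replicate 1, and stood at 0.04 without replicate 2. Pou5f1 was called at the low end of its range, without day 24 replicate 2. The calls of Otor and Vmn1r220 between the lines were lost under 15 and 10 alternatives.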
